A study of Mus musculus with 15 samples.

Results

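Interleukin-1 (IL-1) family cytokines and the molecules that restrain them were followed at the RNA level in the skin of mice lacking OTULIN, a deubiquitinase that removes linear ubiquitin chains, in keratinocytes. The genes were 8 of the 55487 genes counted, taken by their symbols: *Il1a*, *Il1b*, *Il18* and *Il33* encode cytokines, *Il1rn* encodes a receptor antagonist, *Il1r2* a decoy receptor, *Il1r1* the signalling receptor and *Il1rap* its accessory chain. All 8 had counts. There were 15 QuantSeq libraries, each from a skin sample of a C57BL/6 mouse of either sex at 3 weeks of age, with 5 libraries in each of 3 groups. All mice carried loxP-flanked *Otulin* alleles (Otulin fl/fl). WT mice were littermates without Cre, and OTULIN E-KO mice also carried *K14-Cre*, in which the keratin 14 promoter drives Cre recombinase in keratinocytes, so that the other cells of the sample retained *Otulin*. OTULIN E-KO samples were labelled non-lesional or lesional by the appearance of the tissue, and the comparison of the 3 groups asks how gene expression differs between control skin, OTULIN-deficient skin without visible change and skin lesions.

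IL-1α and IL-1β bind the same receptor, IL-1R1, which then recruits the accessory protein encoded by *Il1rap* and signals through the adaptor MyD88 to NF-κB. The IL-1 receptor antagonist occupies IL-1R1 without recruiting the accessory protein, and IL-1R2 binds the cytokine but has no signalling domain. Keratinocytes hold preformed IL-1α, IL-18 and, in the nucleus, IL-33, whereas IL-1β is made mostly on stimulation and is, like IL-18, activated by cleavage. IL-33 and IL-18 use their own primary receptors, and IL-33 shares the *Il1rap* chain with IL-1.

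Library totals were similar, with 2248846 to 2567138 counts in WT, 2237906 to 2409357 in non-lesional and 1962604 to 2510703 in lesional libraries. Levels are given as CPM, which scale each count to a library of 1000000 counts, with library sizes normalized by the trimmed mean of M-values (TMM). QuantSeq counts 1 tag at the 3′ end of a transcript, so levels can be set side by side between genes without a correction for length. *Otulin* ranged from 12.3 to 28.2 CPM in WT, from 21.3 to 30.6 in non-lesional and from 18.8 to 27.2 in lesional libraries. Its 3′ tags therefore did not separate the genotypes and do not check the labels, and groups are named here by the label of the library. Lesional replicates 2 and 11 stood apart from the other 3 lesional libraries in most of what follows. Those 3 were not alike throughout, and replicate 14 differed from replicates 5 and 8 in *Krt10*, given below. The summed level of 10 neutrophil markers was 2987 and 5162 CPM in replicates 2 and 11, against 4.42 to 10.7 in the other lesional libraries, 1.69 to 6.59 in WT and 3.41 to 217 in non-lesional libraries. These sums were nearly all *S100a8* and *S100a9*, which stressed keratinocytes also make, and the neutrophil markers *Ly6g*, *Csf3r* and *Mpo* had no count in any library. Among the other neutrophil markers, *Cxcr2* was at 4.98 and 5.55 CPM in lesional replicates 2 and 11 and at most 1.02 CPM elsewhere, *Retnlg* was at 11.6 CPM in replicate 11 and at most 1.64 CPM elsewhere, and *Ngp*, *Camp* and *Ltf* had at most 1 count in each lesional library. Keratinocyte markers summed to 13975 CPM in lesional replicate 11 and 11130 in replicate 2, against 8388 to 11756 in WT. Single keratinocyte markers went both ways in replicate 11, where *Krt14* was at 5966 CPM (648 to 1454 in WT), *Krt10* at 1377 CPM (2150 to 4997 in WT) and *Krt15* at 641 CPM (2467 to 3421 in WT). *Krt10* was lower still in lesional replicate 14, at 1050 CPM, against 3224 and 3695 CPM in replicates 5 and 8. Replicate 14 also had the lowest keratinocyte sum of all 15 libraries, 7784 CPM. Macrophage markers summed to 759 and 656 CPM in replicates 11 and 2, against 372 to 754 in WT. Fibroblast markers summed to 16666 and 27224 CPM in replicates 11 and 2, against 26914 to 67730 in WT, and muscle markers to 3279 and 13703 CPM, against 14596 to 27475 in WT. Endothelial markers summed to 112 and 154 CPM in replicates 11 and 2, against 179 to 239 in WT. Among the WT libraries, replicate 1 stood apart in hair follicle markers, with a sum of 1297 CPM, against 149 in WT replicate 13, 25.1 to 35.4 in the other WT, 29.4 to 54.7 in non-lesional and 25.3 to 115 in lesional libraries. The part of these differences in the results below was not tested. In RNA from whole skin, fewer cells of a type and less RNA per cell cannot be told apart.

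The promoter sequences of the genes whose levels were highest in lesional replicate 11 are shown first, because these genes were high together in that library. They are the 250 bases before the transcription start in RefSeq (assembly GRCm38.p6), read 5′ to 3′ on the strand of the gene, and capitals mark matches to 1 of 4 motifs searched on both strands. The motifs were the TATA box (TATAAA), AP-1 (TGANTCA), C/EBP (TTNNGCAA) and the NF-κB consensus. Among 32851 mouse promoter windows of the same length, 12.37% held the TATA box, 6.75% AP-1, 9.56% C/EBP and 7.25% NF-κB. The table gave 12 windows for the 8 genes, of which 6 are printed.
Il1b, chr2:129371140-129371389, minus strand: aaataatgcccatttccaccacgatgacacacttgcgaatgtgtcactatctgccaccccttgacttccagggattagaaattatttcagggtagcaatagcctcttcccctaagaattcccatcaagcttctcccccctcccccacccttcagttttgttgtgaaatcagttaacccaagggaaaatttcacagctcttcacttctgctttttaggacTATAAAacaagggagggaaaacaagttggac
Il1a, chr2:129309973-129310222, minus strand: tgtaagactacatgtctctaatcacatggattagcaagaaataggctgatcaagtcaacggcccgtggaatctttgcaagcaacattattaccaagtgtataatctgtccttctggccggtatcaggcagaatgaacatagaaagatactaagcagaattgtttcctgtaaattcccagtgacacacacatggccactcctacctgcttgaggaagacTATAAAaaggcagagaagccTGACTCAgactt
Il33, first start, chr19:29924863-29925112, plus strand: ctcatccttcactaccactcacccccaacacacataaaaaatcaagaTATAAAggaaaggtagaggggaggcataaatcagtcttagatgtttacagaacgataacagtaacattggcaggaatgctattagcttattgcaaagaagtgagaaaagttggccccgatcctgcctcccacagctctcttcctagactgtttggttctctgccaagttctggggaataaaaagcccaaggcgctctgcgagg
Il33, second start, chr19:29945540-29945789, plus strand: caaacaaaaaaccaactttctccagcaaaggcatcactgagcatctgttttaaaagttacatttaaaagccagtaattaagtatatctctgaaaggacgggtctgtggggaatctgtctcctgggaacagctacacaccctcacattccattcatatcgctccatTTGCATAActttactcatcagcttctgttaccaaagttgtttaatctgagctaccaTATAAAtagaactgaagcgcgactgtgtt
Il18, chr9:50554450-50554699, plus strand: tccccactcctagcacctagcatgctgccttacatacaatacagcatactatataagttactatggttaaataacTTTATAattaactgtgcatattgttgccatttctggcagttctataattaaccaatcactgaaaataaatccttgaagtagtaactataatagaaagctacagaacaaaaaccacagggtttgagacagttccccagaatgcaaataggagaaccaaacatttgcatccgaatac
Il1rn, chr2:24336610-24336859, plus strand: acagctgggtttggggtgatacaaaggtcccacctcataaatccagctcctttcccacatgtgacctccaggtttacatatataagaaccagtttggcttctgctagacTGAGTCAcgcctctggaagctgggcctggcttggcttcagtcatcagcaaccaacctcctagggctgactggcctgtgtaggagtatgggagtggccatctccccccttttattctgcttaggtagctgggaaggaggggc

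The capitals in *Il1b* are a TATA box from base -31 to -26, where -1 is the base before the start. *Il1a* had a TATA box from -32 to -27 and an AP-1 match from -12 to -6. The second *Il33* start had a TATA box from -29 to -24 and a C/EBP match from -85 to -78, while the first start had a TATA box at -203 to -198. The first of 3 *Il1rn* windows is printed and had an AP-1 match from -141 to -135, while the other 2 held no match to the 4 motifs. In the printed window, 7 bases lie in an annotated *Il1rn* exon. The *Il18* window had a TATA box on the opposite strand from -175 to -170. No NF-κB match lay in these 6 windows, which says only that these letters are absent there, and a match is not evidence of binding.

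*Il18* was the most abundant of the 8 genes in control skin and *Il1b* the least. The order by mean level in WT was *Il18*, *Il1r2*, *Il1rn*, *Il1r1*, *Il1rap*, *Il33*, *Il1a* and *Il1b*. *Il18* exceeded *Il1r2* in 5 of 5 WT libraries (mean log2 difference 0.44 ± 0.34, SD), and *Il1r2* exceeded *Il1rn* in 5 of 5 (0.76 ± 0.34). *Il1rn* and *Il1r1* did not differ beyond their spread (0.01 ± 0.71), nor did *Il1r1* and *Il1rap* (0.61 ± 0.65). *Il33* exceeded *Il1a* in every WT and every non-lesional library, with ranges that did not overlap. The antagonist, the decoy receptor and the signalling receptor were thus each present at a higher RNA level in control skin than the agonists *Il1a* and *Il1b*.

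**Figure D1:**
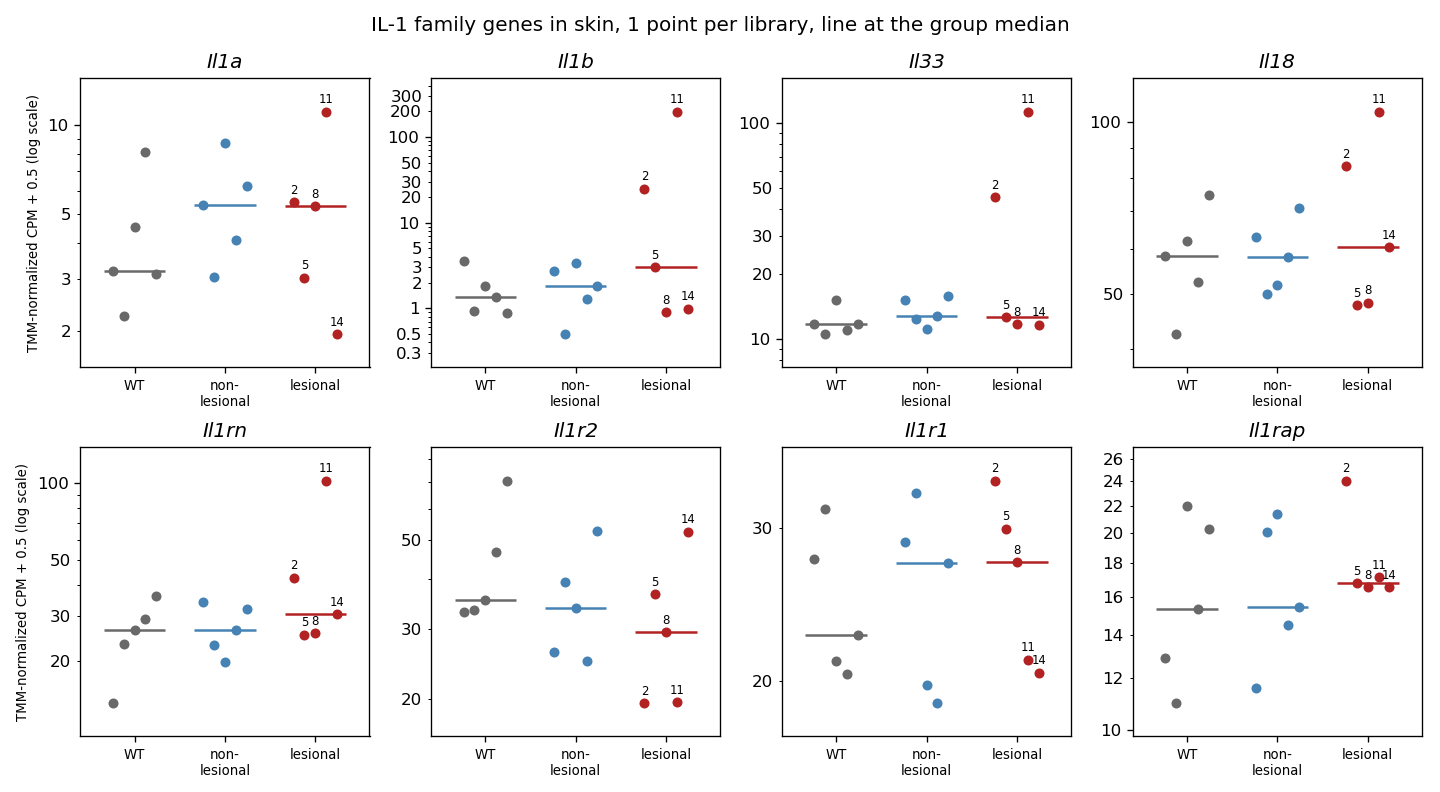
TMM-normalized CPM plus 0.5 (log axes, a separate scale for each gene) of the 8 genes in 5 WT, 5 non-lesional and 5 lesional libraries, with 1 point per library, a line at the group median and replicate numbers beside the lesional points. Lesional replicates 2 and 11 lie above all WT libraries for *Il1b*, *Il33*, *Il18* and *Il1rn* and below all of them for *Il1r2*.

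*Il1b* (ENSMUSG00000027398), encoding the inducible agonist IL-1β, was nearly absent from control skin and high in 2 of 5 lesional libraries. In GRCm38 it spans 129364570 to 129371139 of chromosome 2, on the minus strand. Its counts were 8, 1, 3, 2 and 1 in WT replicates 1, 4, 7, 10 and 13, which is 0.374 to 3.10 CPM. Counts in non-lesional replicates 3, 6, 9, 12 and 15 were 5, 0, 7, 2 and 3, and the 0 in replicate 6 allows up to 1.28 CPM (3 counts, counting error only). Counts in lesional replicates 2, 5, 8, 11 and 14 were 54, 5, 1, 392 and 1. Replicate 11 thus reached 198 CPM and replicate 2 reached 24.5 CPM, while replicates 5, 8 and 14 lay within the WT range at 2.54, 0.402 and 0.487 CPM. The gene did not pass the filter on low counts against WT or against non-lesional libraries. Fitted without the filter, edgeR gave a log2 fold change of 5.12 (SE 1.86, adjusted p = 0.721) for lesional against WT, and the adjusted p of the alternatives ranged from 0.160 with DESeq2 to 0.983. The two-sided exact permutation test of the log2 CPM gave p = 0.254. Without lesional replicates 2 and 11, a choice made after the data were seen, the log2 fold change was -0.16, and it was 2.45 without lesional replicate 11 alone. Between non-lesional and WT libraries it was 0.22 (SE 0.70), and 0.92 without WT replicate 1.

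*Il1a* (ENSMUSG00000027399), encoding the IL-1α that keratinocytes hold preformed, lies in the same cluster, on the minus strand from 129299610 to 129309972, and was low in every group. It had 4 to 18 counts in WT, 6 to 20 in non-lesional and 3 to 21 in lesional libraries. The levels were 3.75 ± 2.31 CPM (SD, n = 5), 4.99 ± 2.16 CPM and 4.88 ± 3.53 CPM. Lesional replicate 11 was again the highest at 10.6 CPM, but replicate 2, at 4.98 CPM, lay within the WT range of 1.75 to 7.61 CPM and replicate 14 was the lowest of all 15 libraries at 1.46 CPM. For lesional against WT, its log2 fold change was 0.38 (SE 0.48, edgeR without the filter, adjusted p = 0.846), and -0.10 without lesional replicate 11. Counting did not name a strand setting, and exons of *Il1a* and *Il1b* overlap opposite-strand genes with 1 to 13 and 0 to 4 counts per library (*Gm14023* and *Il1bos*), whose reads cannot be told apart from theirs. Those counts are few beside the 54 and 392 *Il1b* counts of lesional replicates 2 and 11, but not beside the counts of *Il1a*.

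*Il33* (ENSMUSG00000024810), on the plus strand of chromosome 19 from 29925114 to 29960718, encodes a nuclear alarmin of barrier cells. Its levels were 11.2, 10.1, 14.8, 10.6 and 11.2 CPM in the WT libraries, a narrow range. They were 14.6, 11.9, 10.7, 12.4 and 15.4 CPM in the non-lesional libraries. In lesional replicates 2, 5, 8, 11 and 14 they were 44.8, 12.2, 11.2, 112 and 11.2 CPM. Replicates 2 and 11, with 99 and 223 counts, lay above every other library, and the remaining 3 lay inside the WT range. The log2 fold change of lesional against WT was 1.72 (SE 0.66, edgeR's quasi-likelihood test, unadjusted p = 0.0242, adjusted p = 0.926). The lowest adjusted p of the alternatives was 0.326, with DESeq2, and the two-sided exact permutation test gave p = 0.206. Leaving out lesional replicate 11 gave 0.79, and limma's voomWithQualityWeights, which lowers the weight of libraries that stand apart, gave 0.60. Without both lesional replicates 2 and 11 the value was -0.0081. Against the non-lesional libraries the log2 fold change was 1.55 (SE 0.65), or 0.62 without lesional replicate 11 and -0.17 without both, and it was 0.17 (SE 0.20) for non-lesional against WT.

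*Il18* (ENSMUSG00000039217), on the plus strand of chromosome 9 from 50554827 to 50581840, encodes a cytokine of the epidermis that is activated by inflammasome caspases. It was present at 57.4 ± 11.8 CPM in WT, 58.2 ± 8.5 CPM in non-lesional and 68.4 ± 24.6 CPM in lesional libraries. Lesional replicates 11 and 2 reached 104 and 83.3 CPM, above the highest WT library at 74.1 CPM, and replicates 5, 8 and 14 had 47.3, 47.8 and 59.8 CPM. The differences were within the spread of the libraries: the log2 fold change of lesional against WT was 0.25 (SE 0.23, edgeR, adjusted p = 0.934), 0.05 without lesional replicate 11, and -0.16 without lesional replicates 2 and 11.

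The receptor antagonist gene *Il1rn* (ENSMUSG00000026981), on the plus strand of chromosome 2 from 24336853 to 24351494, was, like *Il1b*, highest in lesional replicates 11 and 2, with a smaller difference from WT. Levels in WT replicates 1, 4, 7, 10 and 13 were 13.2, 22.8, 26.0, 28.8 and 35.5 CPM. Non-lesional libraries had 19.3 to 33.7 CPM, median 26.0. Lesional replicates 2, 5, 8, 11 and 14 had 42.1, 24.9, 25.3, 102 and 30.2 CPM. Again only replicates 2 and 11 exceeded all WT libraries. The log2 fold change of lesional against WT was 0.82 (SE 0.40, edgeR, unadjusted p = 0.0646, adjusted p = 0.926), and the two-sided exact permutation test gave p = 0.175. It was 0.28 without lesional replicate 11, 0.33 with limma's voomWithQualityWeights and 0.08 without lesional replicates 2 and 11. Against non-lesional libraries it was 0.74 (SE 0.38), or 0.20 without lesional replicate 11, and between non-lesional and WT libraries 0.07 (SE 0.22).

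**Figure D2:**
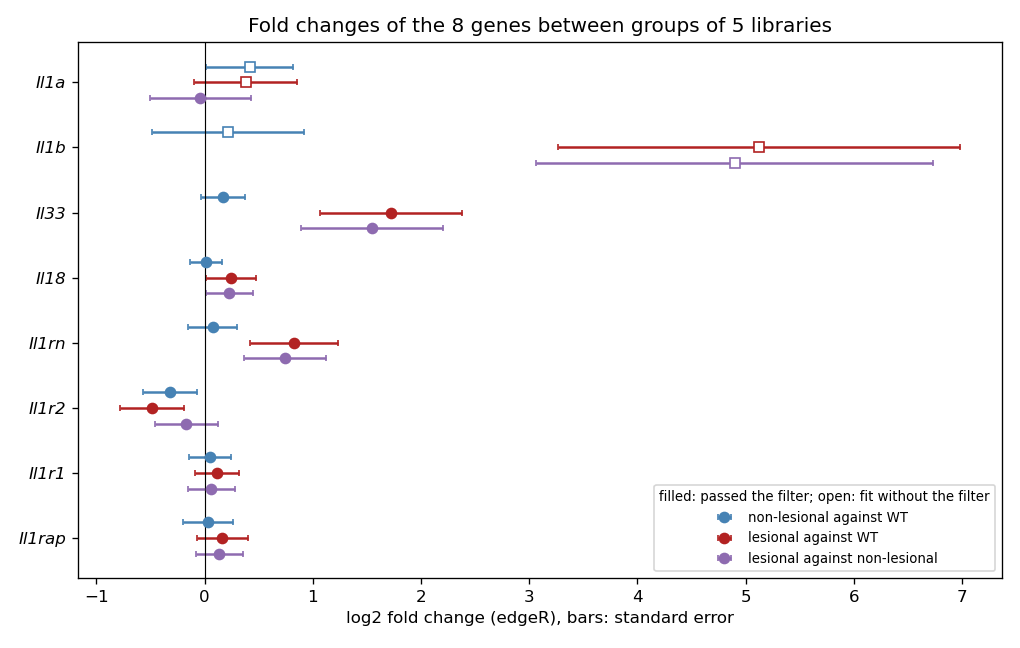
Log2 fold change (x axis) of each of the 8 genes in the 3 comparisons of 5 against 5 libraries, with edgeR's standard error as bars, filled points for genes that passed the filter on low counts and open squares for values fitted without it. The differences of lesional skin from WT are largest for *Il1b* (5.12) and *Il33* (1.72), and those of non-lesional skin from WT lie between -0.32 and 0.42.

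Within a library, antagonist transcripts outnumbered agonist transcripts in 14 of 15 libraries. *Il1rn* counts over the sum of *Il1a* and *Il1b* counts gave ratios of 2.27 to 11.9 in WT and 1.74 to 8.83 in non-lesional libraries. In lesional replicate 11 the ratio was inverted, with 202 antagonist against 413 agonist counts, or 0.489, and in lesional replicate 2 it was 93 against 65, or 1.43. Both lay below all WT and non-lesional libraries. Lesional replicates 5 and 8 had ratios of 4.90 and 4.85, and replicate 14, with 62 against 4 counts, had the highest ratio of all at 15.5. The log2 ratios averaged 2.37 ± 0.99 in WT, 2.14 ± 0.83 in non-lesional and 1.55 ± 1.85 in lesional libraries. The difference of lesional from WT, -0.82, did not exceed the spread (two-sided exact permutation test, p = 0.421, and adjusted for 6 ratio comparisons p = 0.638), and it was 0.38 without lesional replicates 2 and 11. It was -0.18 without lesional replicate 11 alone, -1.38 without lesional replicate 14 and -0.54 without WT replicate 13.

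**Figure D3:**
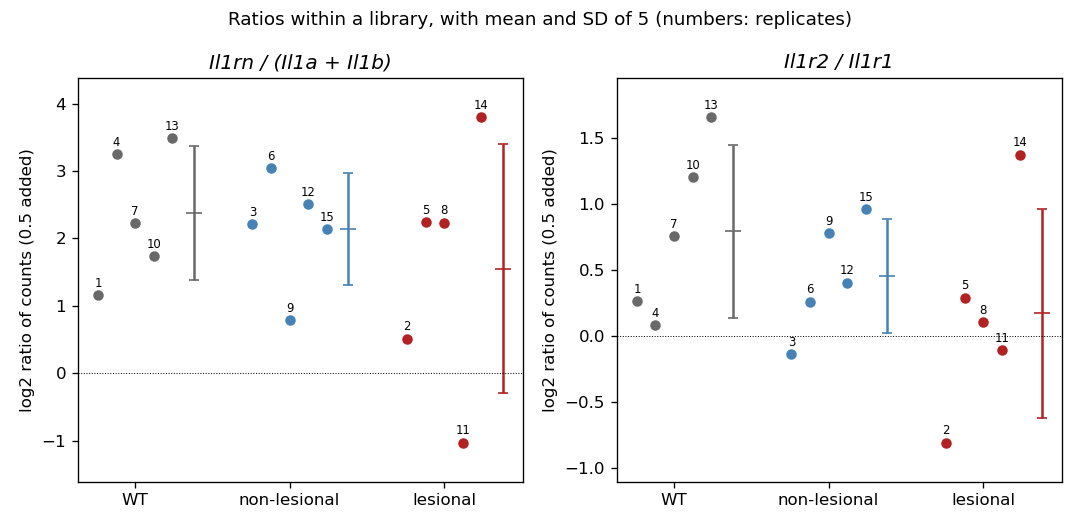
Log2 ratio of counts within each library (y axis, 0.5 added to each count) of *Il1rn* to *Il1a* plus *Il1b* and of *Il1r2* to *Il1r1*, with replicate numbers, and bars for the mean and SD of 5 libraries. Lesional replicate 11 is the library in which agonist counts exceed antagonist counts, and lesional replicates 2 and 11 lie below all WT libraries in both ratios.

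The decoy receptor gene *Il1r2* (ENSMUSG00000026073) was lowest in lesional replicates 2 and 11, the libraries with the highest *Il1b* and *Il33* levels. It lies on the plus strand of chromosome 1 from 40074079 to 40125231, beside *Il1r1*. WT replicates 1, 4, 7, 10 and 13 had 32.6, 32.8, 34.9, 46.1 and 70.0 CPM, and the non-lesional libraries 24.4 to 52.3 CPM, median 33.2. Lesional replicates 2, 5, 8, 11 and 14 had 19.0, 36.1, 28.9, 19.2 and 52.1 CPM. Of the 5 lesional libraries, 3 lay below all WT libraries, but the groups overlapped. The log2 fold change of lesional against WT was -0.49 (SE 0.30, edgeR, unadjusted p = 0.127, adjusted p = 0.926), and the two-sided exact permutation test gave p = 0.175. Without WT replicate 13, the highest library, it was -0.24, without lesional replicate 14 it was -0.75, and without lesional replicates 2 and 11 it was -0.16. Between non-lesional and WT libraries it was -0.32 (SE 0.25), and -0.07 without WT replicate 13.

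*Il1r1* (ENSMUSG00000026072), the signalling receptor, on the plus strand of chromosome 1 from 40225080 to 40317257, had nearly the same level in the 3 groups. It measured 24.2 ± 4.8 CPM in WT, 25.1 ± 6.0 CPM in non-lesional and 26.1 ± 5.8 CPM in lesional libraries. Lesional replicates 2 and 11, which stood together for the cytokines, were at 33.5 and 20.7 CPM here, the highest of all libraries and a value near the low end. Its log2 fold change in lesional against WT was 0.11 (SE 0.20, edgeR, adjusted p = 0.963), and 0.0065 to 0.22 when 1 library was left out. For non-lesional against WT it was 0.05 (SE 0.19).

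*Il1rap* (ENSMUSG00000022514), the accessory chain, on the plus strand of chromosome 16 from 26581704 to 26730117, measured 15.8 ± 4.7 CPM in WT, 16.1 ± 4.1 CPM in non-lesional and 17.7 ± 3.3 CPM in lesional libraries. Lesional replicate 2 was the highest of all libraries at 23.6 CPM, and the other 4 lesional libraries lay between 16.1 and 16.6 CPM. In lesional against WT, its log2 fold change was 0.16 (SE 0.23, edgeR, adjusted p = 0.954), with 0.04 without lesional replicate 2 and 0.29 without WT replicate 7 as the lowest and highest value when 1 library was left out. An opposite-strand gene, *Gm20319*, with 0 to 5 counts per library, overlaps its exons.

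The ratio of decoy to signalling receptor counts, *Il1r2* to *Il1r1*, was 1.06 to 3.17 in WT and 0.906 to 1.95 in non-lesional libraries. In lesional replicates 2, 5, 8, 11 and 14 it was 0.568, 1.22, 1.07, 0.927 and 2.61. Lesional replicates 2 and 11 had more signalling than decoy receptor counts, which no WT library had and 1 non-lesional library, replicate 3, shared. On the log2 scale the difference of lesional from WT was -0.62 (two-sided exact permutation test, p = 0.222, adjusted p = 0.638). It was -0.38 without lesional replicate 2, -0.41 without WT replicate 13 and -0.92 without lesional replicate 14.

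Across all genes, 0 genes (0%) had an adjusted p under 0.05 in each of the 3 comparisons by edgeR's quasi-likelihood test. In lesional against WT, 621 of 12918 genes (4.81%) had an unadjusted p under 0.05, and 3.24% of all genes were both below it and higher. DESeq2 called 14 genes (0.109%) by adjusted p, none of them among the 8. Of the 8 genes, 6 passed the filter and *Il33*, higher, was below that unadjusted threshold. *Il1b* (edgeR, p = 0.0240, with a permutation p of 0.254) joined it without the filter, where the share over all genes was 4.78%. In lesional against non-lesional, 543 of 12864 genes (4.22%) were below it, 2.89% of all genes being also higher, and DESeq2 called 0 genes (0%). Again *Il33* was the 1 gene of the 8 below it (edgeR, p = 0.0383, with a permutation p of 0.381), and *Il1b* (edgeR, p = 0.0275, with a permutation p of 0.278) was below it without the filter, where the share was 4.49% and *Il33* was not (edgeR, p = 0.0656). In non-lesional against WT it was 411 of 13021 genes (3.16%) and none of the 8, and DESeq2 called 1 gene (0.00368%). Without the filter, *Il1r2* (edgeR, p = 0.0459, with a permutation p of 0.333) was below it in that comparison, where the share was 4.53%. No gene of the 8 had groups that did not overlap, which held for 0.72% of all genes in lesional against WT, 0.56% in lesional against non-lesional and 0.66% in non-lesional against WT. The median log2 fold change of the 8 genes without the filter was 0.31 in lesional against WT, 0.18 in lesional against non-lesional and 0.06 in non-lesional against WT, beside 0.01 over all genes in each. The comparisons share groups, so their values are not independent of each other. With 5 libraries against 5, the smallest p of the two-sided exact permutation test is 0.0079.

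The related IL-36 cytokines, epidermal members of the family that signal through their own receptor and *Il1rap*, were also highest in lesional replicates 2 and 11. *Il36g* had 50.7 and 76.1 CPM there, against 9.30 to 17.9 CPM in WT, 11.5 to 20.4 CPM in non-lesional and 11.2 to 16.5 CPM in the other lesional libraries. *Il36a* had 16.8 and 26.2 CPM, against 0.448 to 2.25 CPM in WT and 0 to 8.43 CPM in non-lesional libraries, the highest of these in replicate 3, where *S100a8* was at 115 and *S100a9* at 102 CPM. *Il36b* had 14 and 16.6 CPM, against 0.448 to 5.08 CPM in WT and 0 to 6.21 CPM in non-lesional libraries. *Il36rn*, the antagonist of the IL-36 receptor, had 118 and 217 CPM, against 39.8 to 70.3 CPM in WT and 46.8 to 71.4 CPM in non-lesional libraries. The log2 fold changes of lesional against WT were 1.36 (SE 0.53) for *Il36g* and 0.93 (SE 0.38) for *Il36rn*, both with an adjusted p of 0.926 by edgeR. Agonist and antagonist of the IL-36 branch were thus high in the same libraries, as for *Il1b* and *Il1rn*. Of the 5 further ligands listed, 0 had an adjusted p under 0.05 in lesional against WT. At an unadjusted p under 0.05 without the filter 2 were higher, beside 4.78% of all genes in either direction. By the exact permutation test 0 of 5 were under 0.05, beside 3.45% of all genes.

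**Figure D4:**
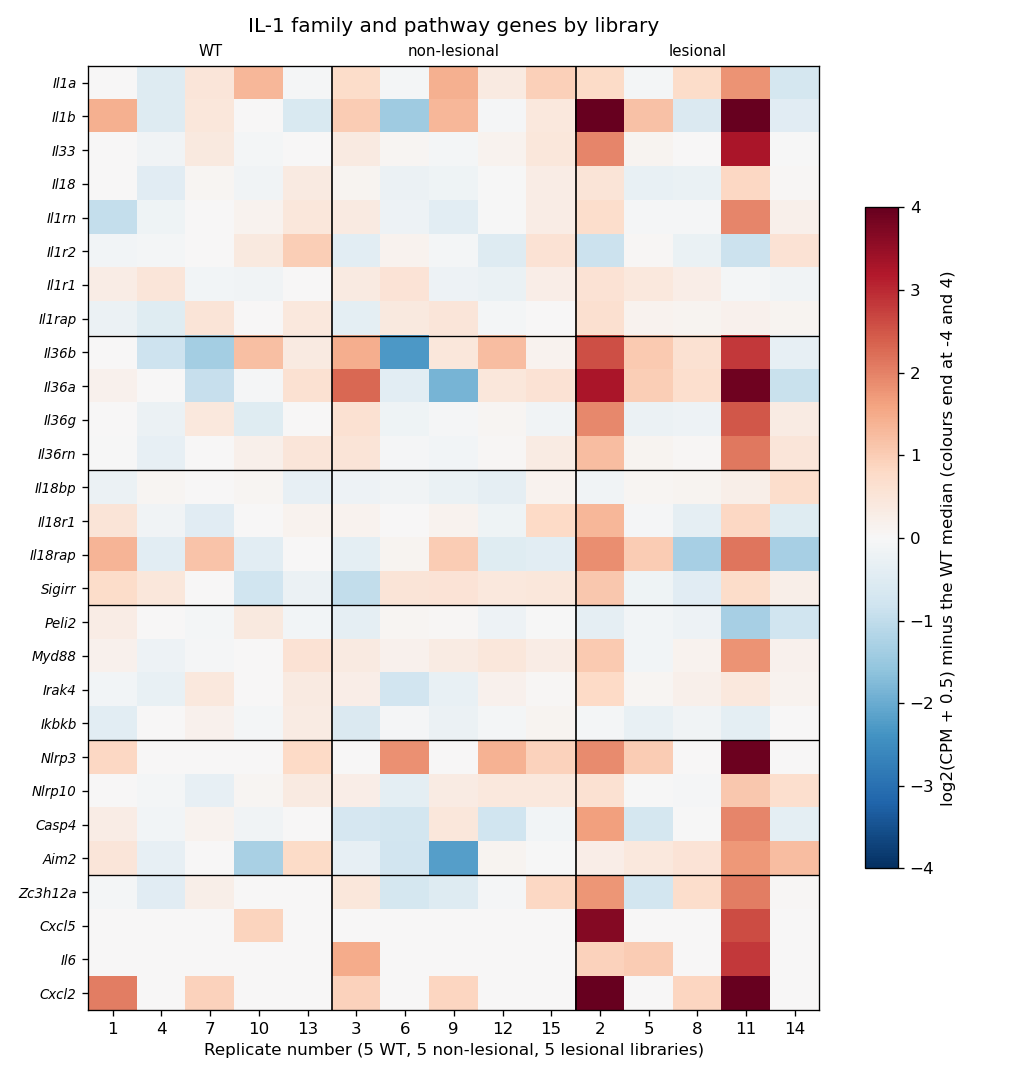
Log2 of CPM plus 0.5, minus the WT median of the gene, in the 15 libraries (columns, by group and replicate number) for the 8 genes and the 4 genes named from each of 5 related lists (rows, lists set apart by lines). The columns of lesional replicates 2 and 11 are red for *Il1b*, *Cxcl2*, *Cxcl5* and *Il36a* and also for *Il18rap*, *Il18r1* and *Sigirr*. *Il1r2* is blue in both of these columns, and *Peli2* is blue in replicate 11.

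The further receptors and signalling genes varied in where they were highest. *Il18bp*, the soluble inhibitor of IL-18, ranged from 31.4 to 42.0 CPM in WT and from 35.8 to 64.7 CPM in lesional libraries, the highest in replicate 14 and not in replicates 2 or 11 (log2 fold change 0.30, SE 0.18, edgeR, adjusted p = 0.926). *Il18r1*, the IL-18 receptor, measured 16.8 CPM in lesional replicate 2, 11.6 CPM in replicate 11 and 4.48 to 9.31 CPM in WT. *Il18rap*, its partner chain, was at 4.08 and 5.04 CPM in lesional replicates 2 and 11 and at most 2.71 CPM elsewhere. *Sigirr*, an inhibitory receptor of the family, was at 9.06 and 7.06 CPM there and at most 6.98 CPM elsewhere. *Myd88*, the adaptor of these receptors, had 62.1 and 105 CPM in replicates 2 and 11, against 26.3 to 44.9 CPM in WT. Of 8 further receptor genes and 16 signalling genes, 0 had an adjusted p under 0.05 in any comparison. By the exact permutation test, 1 signalling gene was under an unadjusted 0.05 in lesional against WT, beside 3.45% of all genes. In lesional against non-lesional it was 1 receptor gene, beside 3.35% of all genes.

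*Peli2*, encoding an E3 ubiquitin ligase that acts on the IRAK kinases, was the 1 signalling gene whose WT and lesional libraries did not overlap, where 0.271% of all genes were lower without overlap. Its levels in lesional replicates 2, 5, 8, 11 and 14 were 48.5, 57.4, 53.0, 24.2 and 35.0 CPM, against 57.6 to 80.4 CPM in WT. The nearest values, 57.4 and 57.6 CPM, were almost equal. The log2 fold change was -0.61 (SE 0.22, edgeR, unadjusted p = 0.0134, adjusted p = 0.926). *Irak4* and *Ikbkb*, kinases of the same cascade, had log2 fold changes of 0.26 (SE 0.21) and -0.19 (SE 0.16).

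Of 12 inflammasome and processing genes, 0 had an adjusted p under 0.05. *Casp4*, encoding the caspase that senses intracellular lipopolysaccharide, reached 17.2 CPM in lesional replicate 2 and 21.7 CPM in replicate 11, while it measured 4.65 to 6.59 CPM in WT and 3.05 to 5.22 CPM in the other lesional libraries. *Nlrp10* had 13.9 to 22.5 CPM in WT and 16.9 to 37.3 CPM in lesional libraries, the highest in replicate 11. *Nlrp3*, the sensor that leads to cleavage of IL-1β, reached 7.06 CPM in replicate 11 and was at or below 1.36 CPM in the other lesional and all WT libraries. *Aim2*, a sensor of cytosolic DNA, had 0.423 to 3.37 CPM in WT and 2.26 to 7.06 CPM in lesional libraries.

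Of 20 genes that IL-1 is known to induce, 5 passed the filter in lesional against WT, 4 higher and 1 lower, with a median log2 fold change of 0.15 and 0 at an unadjusted p under 0.05. *Nfkbia*, which encodes an inhibitor of NF-κB, was at 642 CPM in lesional replicate 11 and 392 CPM in replicate 2, against 442 to 540 CPM in WT. The genes named next are those with the smallest p without the filter. *Cxcl2*, a neutrophil chemokine, had 68.9 and 295 CPM in lesional replicates 2 and 11 and at most 1.55 CPM in any other library. *Cxcl5*, of the same class, had 5.89 and 2.52 CPM there, 0.423 CPM in WT replicate 10 and no count in the other 12 libraries. *Zc3h12a*, encoding an RNase that degrades cytokine transcripts, had 14 and 17.1 CPM, against 2.63 to 4.48 CPM in WT. *Il6* had no count in WT, at most 0.887 CPM in non-lesional and at most 3.03 CPM in lesional libraries. *Il6*, *Cxcl3*, *Csf2*, *Csf3* and *Saa3* had no count in any WT library and could only be higher in the fit without the filter, so no median of the list is given from it. That fit gave 11 of the 20 an unadjusted p under 0.05, 4 of them from these 5 genes, beside 4.78% of all genes in either direction. By adjusted p, edgeR called 0 of the 20 in either fit. By the exact permutation test, 0 of 20 were under an unadjusted 0.05, beside 3.45% of all genes.

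The mix of cytokine transcripts differed in lesional replicates 2 and 11. Among the counts of the 7 cytokine genes *Il1a*, *Il1b*, *Il18*, *Il33*, *Il36a*, *Il36b* and *Il36g*, *Il18* made up 60.0% to 69.7% in WT and 52.4% to 64.8% in non-lesional libraries. It made up 34.8% in lesional replicate 2 (95% Wilson interval 30.9% to 39.0%) and 19.1% in replicate 11 (16.9% to 21.6%), against 56.7% to 65.4% in the other lesional libraries. *Il1b* made up 10.2% (7.92% to 13.1%) and 36.4% (33.5% to 39.3%) in replicates 2 and 11, and at most 3.39% in WT. *Il33* made up 18.8% and 20.7%, against 10.6% to 14.9% in WT. The summed counts were 528 and 1078 in these replicates, against 154 to 284 in WT, and the intervals cover counting error only.

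**Figure D5:**
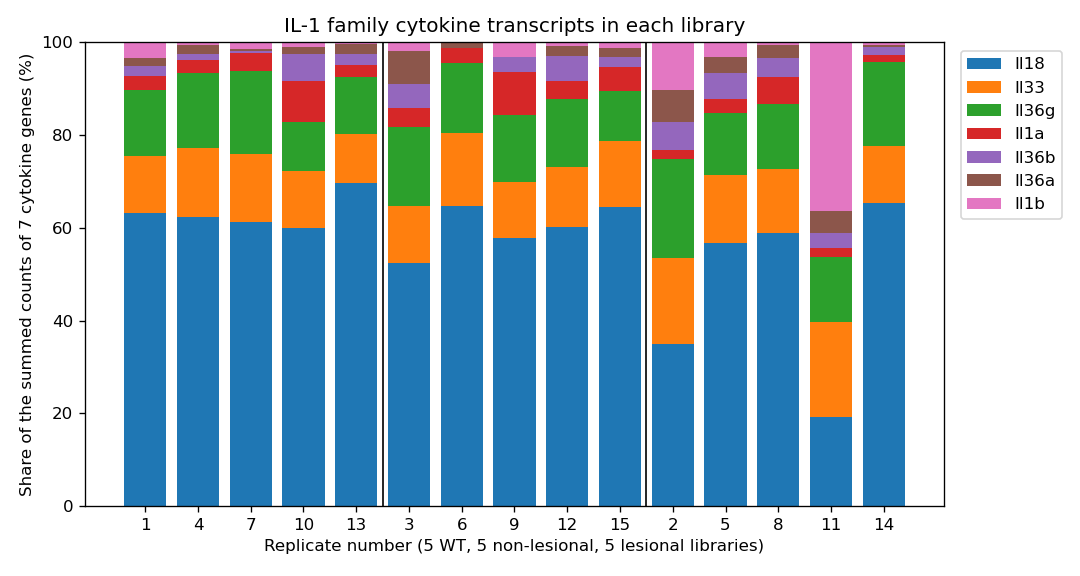
Share (%) of each of 7 cytokine genes in their summed counts, in stacked bars for the 15 libraries by replicate number, with lines between the groups. *Il18* fills more than 50% of each bar except lesional replicates 2 and 11, where *Il1b* reaches 10.2% and 36.4%.

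Across the 15 libraries, *Il1b* and *Il33* had a Pearson correlation of log2 CPM of 0.95 and a Spearman correlation of 0.51, and both were 0.25 without lesional replicates 2 and 11. *Il1rn* and *Il18* correlated by both measures (0.79 and 0.82, and 0.46 and 0.72 without them). *Il1r2* had negative coefficients with *Il1b* (-0.66 and -0.53, and -0.32 and -0.28 without them) and *Il33* (-0.62 and -0.43, and -0.10 and -0.13 without them). With *Il18* it gave -0.25 and -0.13, and 0.48 and 0.34 without them, and with *Il1rn* -0.31 and -0.089, and 0.41 and 0.40 without them. Among all genes with a mean of at least 5 CPM, *Ndrg1* was most like *Il1b* (0.97, and 0.64 without lesional replicates 2 and 11) and *Teddm3* most like *Il33* (0.98, and 0.61 without them). *Defb1*, encoding an epithelial defensin, was among the closest 3 for both. The genes most like *Il18* depended less on these libraries: *Rab25*, encoding an epithelial GTPase, gave 0.96, and 0.93 without them. *Anxa8* was most like *Il1r2* (0.94) and *Calm4* most like *Il1rn* (0.94), while *Serpinb11*, *Ick* and *Mtmr6* were most like *Il1a* (0.85), *Il1r1* (0.83) and *Il1rap* (0.84). These coefficients describe points that share library and scaling, and carry no test.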

How the data were processed

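Gene expression was measured by QuantSeq 3′ RNA sequencing (FWD protocol) in 15 skin samples of 3 labelled groups (WT and, from OTULIN E-KO mice, non-lesional or lesional). Per the submitters' processing notes and the study's methods, the authors clipped adaptors with cutadapt 2.10, mapped reads with Subread to GRCm38 and spike-in sequences, filtered the alignments by quality with SAMtools 1.7-2, and summed them over exons per gene with featureCounts 2.0.1. The deposited counts are raw, reads over several genes were counted for each, and the featureCounts parameters in the study's methods name no strand option. Molecular identifiers were not counted, so counts may include PCR copies. The authors also deposited CPM, which were read only to check their unit, and every CPM in the text was computed from the counts. The 92 spike-in rows held 0 counts and were left out.

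Library totals were 1962604 to 2567138 counts, so that 1 count is worth 0.374 to 0.508 CPM. Each pair of groups was fitted with edgeR 4.0.16 (R 4.3.3). Genes were filtered with filterByExpr, libraries scaled by TMM, and groups compared by the robust quasi-likelihood F-test, adjusted by Benjamini-Hochberg over all genes tested at a threshold of 0.05. Standard errors are the log2 fold change over the square root of F. For genes that the filter removed, the same fit without the filter is given and named. Log2 CPM used a prior count of 2, and 252 regroupings were enumerated in the permutation tests. Ratios added 0.5 to each count before the logarithm. No pair of libraries agreed within sampling noise (chi-square over degrees of freedom 3.81 or more). Whether the OTULIN E-KO groups share mice is not given in the sources used here, and p-values measure the spread between these samples. The alternatives were DESeq2 1.42.0, limma 3.58.1, other size factors and filters, all 15 libraries in 1 fit, and leaving out each replicate. The fit was tested on simulated counts.

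The genes and lists were chosen with earlier results of these data known. Genes named are the 8, the 4 of each related list with the smallest p in lesional against WT without the filter, the 3 most correlated with each of the 8 at a mean of at least 5 CPM, and the 2 most abundant of each marker list, of which the text names those of the neutrophil and keratinocyte lists. *Otulin*, *Ly6g*, *Csf3r*, *Mpo*, *Cxcr2*, *Retnlg*, *Ngp*, *Camp*, *Ltf*, *Krt14*, *Nfkbia*, *Cxcl3*, *Csf2*, *Csf3*, *Saa3* and the overlapping opposite-strand genes were named outside this rule. All 151 list symbols matched, the IL-36 genes through RefSeq synonyms. Coordinates are from GENCODE M21 (GRCm38).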

Additional observations from a re-analysis of the deposited data

Results flagged for a closer look

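For each of the 8 genes and the 2 ratios in each group of 5 libraries, the distance of the highest or lowest library from its neighbour was compared with the range of the group (Dixon's test, critical value 0.71). Of 30 groups, 4 had such a library, where chance flags about 1 in 20 groups. *Il1b* in lesional replicate 11 was 198 CPM, against 24.5 CPM in the next library. *Il1rn* in the same library was 102 CPM, against 42.1 CPM in the next. *Il1rap* in lesional replicate 2 was 23.6 CPM, against 16.6 CPM in the next. *Il33* in WT replicate 7 was 14.8 CPM, against 11.2 CPM in the next. *Il33* in the lesional group was not among them, because replicate 2 lay between replicate 11 and the rest.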

How the results depend on the processing

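None of the 399 adjusted p-values of the 8 genes, over all comparisons and alternatives, was under 0.05, and the lowest was 0.160 (*Il1b*, lesional against WT, DESeq2). The count of genes with an adjusted p under 0.05, 0 in each comparison, was 1 with DESeq2 and 18 without the filter in non-lesional against WT, and 14 with DESeq2 in lesional against WT. Leaving out each replicate gave 0 to 5 such genes in non-lesional against WT, the 5 without non-lesional replicate 6.

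Leaving out lesional replicates 2 and 11 together, a setting chosen after seeing the data, turned the direction of log2 fold changes against WT for *Il1a* (-0.32), *Il1b* (-0.16), *Il18* (-0.16) and *Il33* (-0.0081), and of the log2 ratio of *Il1rn* to *Il1a* plus *Il1b* (0.38). Against non-lesional libraries it turned *Il1b* (-0.37), *Il18* (-0.17), *Il33* (-0.17), *Il1r2* (0.16), *Il1rap* (-0.00076), the *Il1rn* ratio (0.62) and the *Il1r2* to *Il1r1* ratio (0.14). These 2 libraries stood apart in the same genes, so smaller or turned differences without them follow from the choice and are no test. In the fits without them the lesional group rests on 3 libraries.

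When each replicate was left out in turn, the following values changed sign, except where stated. In non-lesional against WT, edgeR's log2 fold change ranged from -0.19 to 0.92 for *Il1b*, -0.092 to 0.24 for *Il1rn*, -0.076 to 0.13 for *Il18*, -0.059 to 0.15 for *Il1r1* and -0.084 to 0.16 for *Il1rap*. The difference of mean log2 CPM ranged from -0.10 to 0.43, -0.093 to 0.25, -0.073 to 0.13, -0.060 to 0.14 and -0.087 to 0.16 for the same genes. The *Il1rn* ratio ranged from -0.54 to 0.10. In lesional against WT, *Il1a* ranged from -0.10 to 0.81 by edgeR and from -0.071 to 0.50 in log2 CPM, and *Il1b* kept its direction, from 2.45 without lesional replicate 11 to 5.83. In lesional against non-lesional, *Il1a* ranged from -0.50 to 0.22 by edgeR and from -0.46 to 0.11 in log2 CPM, *Il1r1* from -0.040 to 0.17 and from -0.036 to 0.16, *Il1r2* from -0.43 to 0.020 by edgeR, and the *Il1rn* ratio from -1.15 to 0.057. The cause of these changes was not tested.

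No paired analysis was run. The groups share no replicate number, and no label ties libraries of different groups to 1 mouse, litter or batch. The numbers do run in consecutive sets, from WT 1, lesional 2 and non-lesional 3 to WT 13, lesional 14 and non-lesional 15. Within each group, *Il1r2* was highest in the library of that last set. No fit took these sets into account, and their part in the differences was not tested. Depth limits *Il1b* and *Il1a*, whose WT libraries held 1 to 8 and 4 to 18 counts.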
